A study of Mus musculus with 27 samples.

Results

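Microfibrils are thin extracellular fibres, and the 9 mouse genes described here (Mfap2, Mfap4, Mfap5, Fbn1, Fbn2, Ltbp1, Ltbp3, Emilin1 and Eln) encode parts of them or of the elastic fibres that form on them. Their RNA was measured in the optic stalk (OS), the tube of neural tissue between the eye cup and the brain. They are 9 of 55487 genes in the count table, and all 9 were among the 16330 genes kept by a filter (over 10 counts in 3 or more of the 27 libraries). The set was picked from these same libraries, for the low level of Mfap2 in dorsal mutants and the high level of Ltbp1 in dorsal controls. Values of the 9 genes that involve the dorsal OS are therefore given as a description without a test, and tests of these genes are kept to the ventral and axon-rich regions. Ltbp1 was chosen by its regional pattern, so it has no test against or within the axon-rich region.

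All embryos were at embryonic day 14 (E14). The mutants, Smarcc1-DCT-cKO, carried a Smarcc1 gene flanked by loxP sites on both alleles, the Dct-Cre transgene and the Z/EG reporter, which turns on green fluorescent protein in cells that had Cre. Dct-Cre acts in the pigmented lineages of the eye and in the OS, first on its dorsal side and, by the stage sampled, throughout the OS. Blood vessels and the connective tissue around the stalk come from other lineages. The controls were littermates that lacked Dct-Cre. Smarcc1, also called BAF155, belongs to the core of SWI/SNF complexes, which shift nucleosomes. From each of 4 control and 5 mutant embryos, laser capture took 3 pieces of the OS, 1 dorsal, 1 ventral and 1 rich in axons, and each piece gave 1 library. Batch A held control 1 and mutants 1 to 3, and batch B held controls 2 to 4 and mutants 4 and 5. Within a genotype a number was taken to name 1 embryo, and control 1 and mutant 1 are different animals.

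Library totals ran from 10.9 to 34.0 M counts, so that 1 read was worth 0.0294 to 0.0917 CPM (counts divided by the library total in M counts) and a count of 0 allowed a level of up to 0.0883 to 0.275 CPM (3 counts). Intervals of this kind cover counting error only, because the cDNA was amplified by PCR without molecular identifiers. Genes with a count numbered 9225 to 11358 in axon mutants, 10076 to 14118 in axon controls and 11727 to 16810 in ventral libraries. Smarcc1 was at 75.9 to 289 CPM in dorsal controls and at 2.26 to 107 CPM in dorsal mutants. The ventral ranges were 75.7 to 198 and 14.7 to 64.4 CPM, and the axon ranges 50.1 to 242 and 1.86 to 44.9 CPM. These counts cover the whole gene and do not separate transcripts of the recombined allele. The genotypes overlapped in Smarcc1 level in the dorsal OS and did not overlap in the other regions. In such bulk pieces fewer cells of a type and less RNA per cell cannot be told apart.

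Fibrillins polymerise into the beaded backbone of a microfibril, and smaller glycoproteins, among them Mfap2, attach to it. Microfibrils guide the deposition of elastin in elastic tissues, and in the eye they also form the zonules that hold the lens. They bind the large latent complexes of transforming growth factor beta (TGF-beta), through latent TGF-beta binding proteins such as Ltbp1 and Ltbp3, and so store the growth factor in the matrix.

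The upstream sequences of Mfap2 and Ltbp1 are shown because the set was picked for these genes. Each is the stretch of 250 bases before a RefSeq transcript start on the GRCm38.p6 build, written 5′ to 3′ on the strand of the gene, with capitals marking CCAAT or its reverse complement ATTGG.
Mfap2, chr4:141010174-141010423, plus strand: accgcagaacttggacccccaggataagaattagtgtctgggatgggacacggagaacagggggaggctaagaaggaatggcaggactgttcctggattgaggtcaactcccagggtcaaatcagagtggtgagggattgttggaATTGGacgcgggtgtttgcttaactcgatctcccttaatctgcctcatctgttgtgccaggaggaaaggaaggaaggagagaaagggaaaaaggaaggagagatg
Ltbp1, chr17:75005279-75005528, plus strand: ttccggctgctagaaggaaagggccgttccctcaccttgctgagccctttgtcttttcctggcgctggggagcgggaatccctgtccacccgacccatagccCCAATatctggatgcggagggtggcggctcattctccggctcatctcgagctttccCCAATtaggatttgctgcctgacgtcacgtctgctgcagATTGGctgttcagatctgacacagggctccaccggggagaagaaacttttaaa
The last 6 bases of the Mfap2 window lie in its first exon as GENCODE places it. The Mfap2 window held 1 CCAAT box and the Ltbp1 window 3. Searched on both strands, CCAAT was present in 33.8% of the 32851 windows of this length in the RefSeq table. Neither window held the GC box GGGCGG, found in 32.7% of windows, or TATAAA, found in 12.4%. The GC content was 51.2% for Mfap2 and 56.8% for Ltbp1, against a median of 52.4% over all windows. These letters describe the windows and were not tied to any measured binding. The table lists a second start for each gene. The 250 bases before the second Mfap2 start (chr4:141010431-141010680, inside the gene as GENCODE places it) held 2 GC boxes and 0 CCAAT boxes at a GC content of 68.8%, and those before the second Ltbp1 start (chr17:75178531-75178780) held 0 of either at 50.8%. The windows printed are those of the more upstream start. Of the 9 genes, 5 had an entry in this table.

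Mfap2 was the most abundant of the 9 in the OS when levels are taken per kilobase of exon, and it was lower in every dorsal mutant than in any dorsal control. It encodes microfibril-associated glycoprotein 1 and lies on chr4:141010418-141015984 of mm10, plus strand, with no exonic base shared with another gene. In dorsal controls 1 to 4 it was at 1176, 875, 969 and 1053 CPM. In dorsal mutants 1 to 5 it was at 249.6, 176, 222, 179 and 302 CPM. The ranges did not overlap, with all 5 mutants below all 4 controls, and the mean was 1018 ± 128 CPM (SD, n = 4) in controls against 225 ± 52.5 CPM (SD, n = 5) in mutants, a 4.52-fold difference. Because the gene was chosen for this difference, no test is attached to it. The difference stood at -2.16 on the log2 scale (SE 0.23) in the edgeR fit with batch as a term, at -2.46 within batch A and at -1.99 within batch B. The batch A value rests on 1 control library, dorsal control 1, the highest of the dorsal controls.

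In the ventral OS, Mfap2 was at 481, 696, 396 and 646 CPM in controls 1 to 4. In mutants 1 to 5 it was at 591, 338, 235, 385 and 381 CPM. The ranges overlapped, though 4 of the 5 mutants lay below all controls and mutant 1 lay between controls 1 and 4. The mean was 554 ± 140.1 CPM (SD, n = 4) in controls and 386 ± 129.6 CPM (SD, n = 5) in mutants. The fitted log2 fold change was -0.50 (SE 0.29) and did not pass the edgeR test (adjusted p = 0.999, unadjusted p = 0.116).

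In the axon-rich region, Mfap2 was at 1061, 477, 213 and 442 CPM in controls 1 to 4 and at 519, 759, 318, 446 and 434 CPM in mutants 1 to 5. Control 1 held the highest value and control 3 the lowest, and all mutants fell between them. The median fitted log2 fold change of all genes in this comparison was -0.29. For Mfap2 the fitted value was -0.27 (SE 0.34), with an edgeR adjusted p of 0.946. It was 0.23 when the libraries of axon control 1 and axon mutant 2 were both left out, a choice made after the data had been seen.

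Ordered by mean, Mfap2 levels ran from dorsal controls through ventral controls (554 ± 140.1 CPM), axon controls (548 ± 362 CPM), axon mutants (495 ± 164 CPM) and ventral mutants (386 ± 129.6 CPM) down to dorsal mutants. The dorsal controls did not overlap the ventral controls next to them in this order, and every later pair of neighbours overlapped. They did overlap the axon controls, since axon control 1, at 1061 CPM, lay within the dorsal control range of 875 to 1176 CPM. Within an embryo, the dorsal piece exceeded the ventral piece in 4 of 4 controls, by a mean of 0.90 ± 0.47 on the log2(CPM + 1) scale (SD, n = 4). The dorsal piece was below the ventral piece in 5 of 5 mutants, with a mean difference of -0.74 ± 0.50 (SD, n = 5). Against the axon-rich piece, the mean difference was 1.11 ± 0.85 in controls and -1.10 ± 0.66 in mutants, again with 1 direction in each genotype. These orders involve the dorsal values that chose the set.

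**Figure D1:**
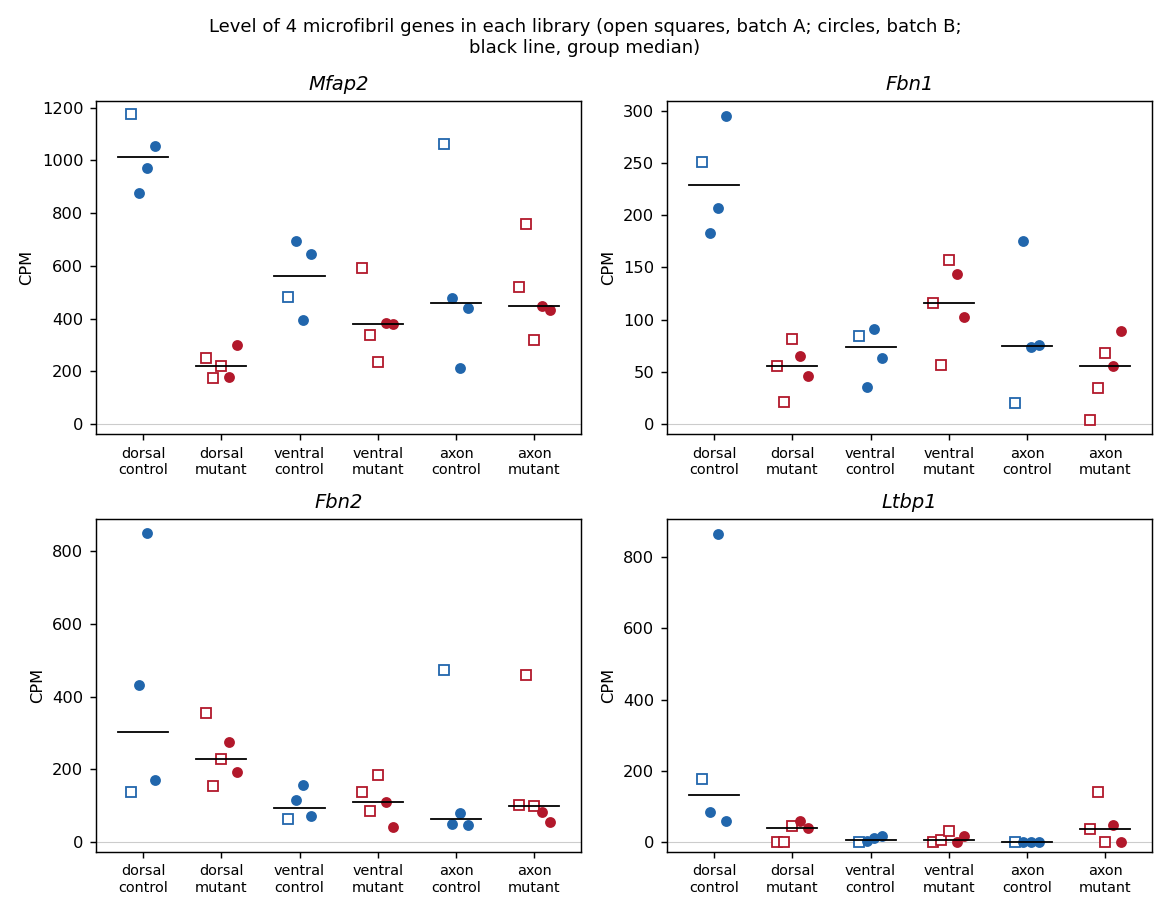
Levels of Mfap2, Fbn1, Fbn2 and Ltbp1 in CPM (vertical axes, linear and separate for each gene) in every library of the 6 groups; open squares are batch A, filled circles batch B, and black lines group medians. The dorsal mutants of Mfap2 (176 to 302 CPM) and of Fbn1 (20.9 to 81.3 CPM) lie below all dorsal controls, whereas Fbn2 and Ltbp1 each have 1 dorsal control (850.0 and 865 CPM) far above the rest.

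**Figure D2:**
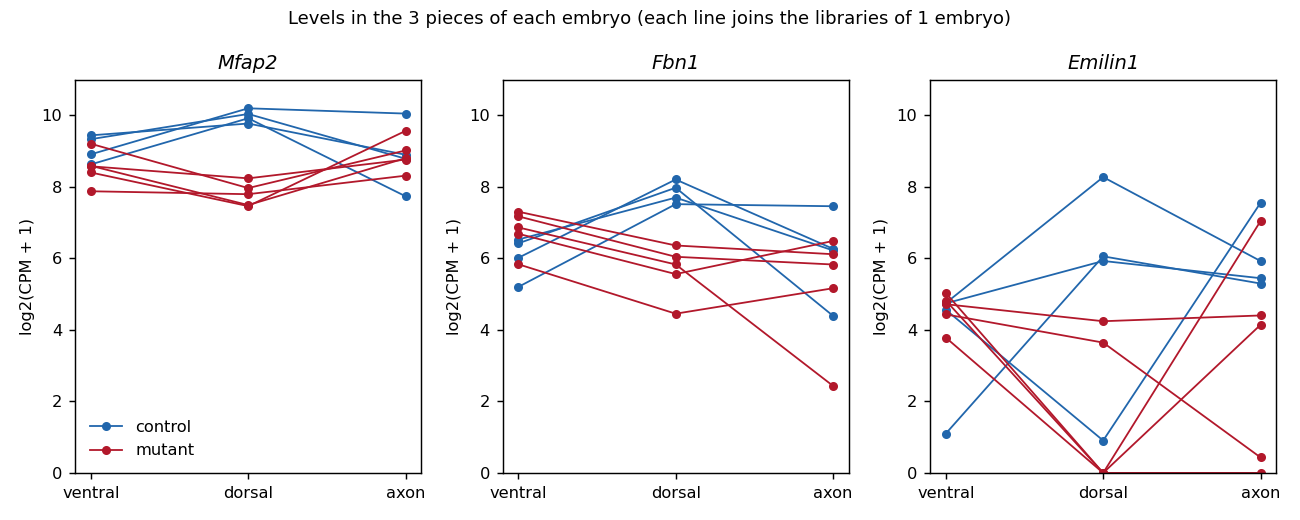
Levels of Mfap2, Fbn1 and Emilin1 on the log2(CPM + 1) scale (vertical) in the ventral, dorsal and axon-rich pieces, with a line for each embryo coloured by genotype. For Mfap2 the dorsal piece is the highest in 4 of 4 control embryos and the lowest in 5 of 5 mutant embryos.

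Per kilobase of exon, Mfap2 reached 841 ± 106 CPM per kb in dorsal controls (SD, n = 4), and Mfap4, the next, 86.2 ± 80.4. Mfap2 made up 81.1 ± 12.5% of the summed level of the 9 genes per kb in dorsal controls (SD, n = 4) and 55.8 ± 14.9% in dorsal mutants (SD, n = 5). It was the highest of the 9 in 3 of 5 dorsal mutants and in all libraries of the other 5 groups. Outside the dorsal OS its mean share was 83.2 to 88.8%.

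Mfap5, on chr6:122505845-122529290, encodes the paralogue of Mfap2, microfibril-associated glycoprotein 2. It was at 29.0, 1.43, 0 and 5.18 CPM in dorsal controls 1 to 4 and at 0, 0.477, 0, 0 and 1.06 CPM in dorsal mutants 1 to 5. It had 0 counts in 20 of 27 libraries, including all 9 axon libraries, and exceeded 10 counts in 6. Its largest value, 29.0 CPM in dorsal control 1, was in the library that also held the most Mfap2.

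Mfap4, a fibrinogen-related protein that binds fibrillin and tropoelastin, did not share the dorsal pattern of Mfap2. It was at 0.333, 209, 359 and 94.6 CPM in dorsal controls 1 to 4 and at 499, 82.9, 485, 125 and 179.8 CPM in dorsal mutants 1 to 5. The ranges overlapped, the 2 highest values were those of mutants 1 and 3, and control 1 had less than 1 CPM. In those 2 mutants Mfap4 exceeded Mfap2 per kb. Ventral values were 0.0511, 80.8, 147 and 38.0 CPM in controls 1 to 4 and 101, 45.2, 137, 22.4 and 27.3 CPM in mutants 1 to 5. Control 1 was thus near the floor in its ventral piece as well, while its axon-rich piece held 301 CPM. The axon ranges, 2.24 to 301 CPM in controls and 0 to 97.5 CPM in mutants, overlapped too. Mfap4 lies on chr11:61485431-61488900. Of its exonic bases, 4.63% lie on Mapk7, on the opposite strand, and the strand setting of the counting is not given in the sources used here.

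Fbn1 encodes fibrillin-1, the main fibrillin of postnatal microfibrils. It had the same dorsal order as Mfap2 and a different ventral one. It was at 251, 182, 207 and 295 CPM in dorsal controls 1 to 4 and at 56.0, 20.9, 81.3, 65.1 and 46.3 CPM in dorsal mutants 1 to 5. Every mutant was below every control, and the means of 234 ± 49.6 CPM (SD, n = 4) and 53.9 ± 22.5 CPM (SD, n = 5) stood 4.34-fold apart. Mfap2 and Fbn1 were the 2 of 9 genes with dorsal mutants all below dorsal controls, a pattern of 1.61% of the 16145 genes fitted in the dorsal OS, and 0 of 9 had the mutants all above (1.31%). Since the dorsal difference chose the set, nothing is read from that count.

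In the ventral OS, Fbn1 was at 84.8, 35.8, 91.4 and 63.8 CPM in controls 1 to 4. In mutants 1 to 5 it was at 116, 56.2, 157, 144 and 102 CPM. Of the mutants, 4 lay above all controls and mutant 2 lay among them. The means were 69.0 ± 25.0 CPM (SD, n = 4) and 115 ± 39.5 CPM (SD, n = 5), and the log2 fold change of 0.70 (SE 0.48) did not pass the edgeR test (adjusted p = 0.999, unadjusted p = 0.176). Within embryos, Fbn1 was higher in the dorsal than in the ventral piece in 4 of 4 controls, by 1.81 ± 0.54 log2 units (SD, n = 4), and lower in 5 of 5 mutants, by a difference of -1.12 ± 0.16 (SD, n = 5). Axon values were 20.03, 175, 73.8 and 76.2 CPM in controls 1 to 4 and 4.41, 34.9, 68.5, 55.9 and 88.8 CPM in mutants 1 to 5, with overlapping ranges and a log2 fold change of -0.05 (SE 1.20; edgeR adjusted p = 1.000). Fbn1 lies on chr2:125300594-125507993, minus strand, and Gm9913, on the opposite strand, covers 20.1% of its exonic bases. Its values are uncertain to that extent.

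Fbn2 encodes fibrillin-2, which is most abundant in embryonic microfibrils. It was at 139, 433, 850.0 and 171 CPM in dorsal controls 1 to 4. In dorsal mutants 1 to 5 it was at 355, 153, 227, 276 and 194 CPM. All mutants lay within the control range, with controls 2 and 3 at the top. Fbn2 was higher in the dorsal than in the ventral piece in all 9 embryos, by a mean of 1.66 ± 0.61 log2 units (SD, n = 4) in controls and of 1.20 ± 0.69 (SD, n = 5) in mutants. In that respect it differed in order from Fbn1, whose dorsal excess was present in controls and absent from mutants. Ventral values were 63.8, 117, 157 and 72.8 CPM in controls 1 to 4 and 137, 84.3, 185, 109.8 and 42.5 CPM in mutants 1 to 5. Axon values were 474, 48.4, 80.0 and 48.0 CPM in controls 1 to 4 and 101, 460.4, 101, 82.2 and 54.1 CPM in mutants 1 to 5. Axon control 1 and axon mutant 2 stood apart from all other axon libraries at 474 and 460.4 CPM. The log2 fold changes of -0.05 (SE 0.59) in the ventral OS and -0.34 (SE 0.58) in the axon-rich region did not pass the edgeR test (adjusted p = 0.999 and 0.979).

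**Figure D3:**
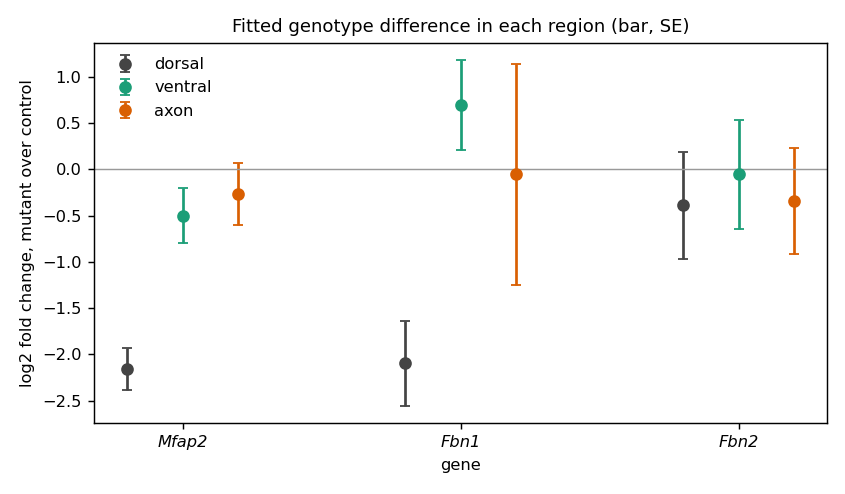
Fitted log2 fold changes of mutant over control (points) with their SE (bars) for Mfap2, Fbn1 and Fbn2 in the dorsal, ventral and axon-rich regions. The dorsal values of Mfap2 (-2.16) and Fbn1 (-2.10) chose the set or share its contrast and carry no test, and in the other regions the values run from -0.50 to 0.70.

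Ltbp1 encodes latent TGF-beta binding protein 1, and its dorsal control level rested largely on 1 library. It was at 177, 84.4, 865 and 58.6 CPM in dorsal controls 1 to 4 and at 0, 0, 46.2, 59.4 and 39.7 CPM in dorsal mutants 1 to 5. Mutants 1 and 2 had no count, and mutant 4, at 59.4 CPM, lay just above control 4. The ratio of the means was 10.2-fold with all controls and 3.67-fold without dorsal control 3. In the ventral OS it was at 0.0511, 3.20, 10.3 and 17.0 CPM in controls 1 to 4 and at 0, 4.36, 32.3, 0 and 17.2 CPM in mutants 1 to 5, with overlapping ranges and 2 mutants at 0. Dorsal control pieces exceeded the ventral and axon-rich pieces of the same embryo in 4 of 4 cases, as the choice of the gene implies. Axon values were 0.111, 0, 0.0596 and 0 CPM in controls 1 to 4, which is at most 2 counts a library. In axon mutants 1 to 5 they were 36.3, 139, 0, 47.3 and 0.0444 CPM. The mutant mean, 44.6 ± 57.0 CPM (SD, n = 5), rested on 3 mutants with counts above the floor. The other 2 mutants were at or near 0, so the ranges of the genotypes overlapped. That mean was 276-fold a floor of 3 counts per library in the controls. Without axon mutant 2, which had the largest mesenchyme sum of its group, it was 129-fold. Both ratios cover counting error in the controls only. The gene was chosen by its regional pattern, so no difference between genotypes is read from them. Ltbp1 lies on chr17:75005568-75392512, plus strand, and shares no exonic base with another gene.

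Ltbp3, on chr19:5740904-5758532, encodes a related latent TGF-beta binding protein. It was at 152, 87.3, 41.2 and 94.8 CPM in dorsal controls 1 to 4 and at 57.6, 2.74, 0, 30.5 and 0 CPM in dorsal mutants 1 to 5. Of the mutants, 4 were below all controls, while mutant 1 lay above control 3. Ventral values were 29.3, 73.1, 34.5 and 28.3 CPM in controls 1 to 4 and 55.1, 3.44, 5.74, 13.2 and 26.3 CPM in mutants 1 to 5. There, too, 4 mutants lay below all controls and mutant 1 lay among them. The axon libraries held little, 0 to 21.2 CPM in controls and 0 to 54.0 CPM in mutants.

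Eln (chr5:134702593-134747323) encodes tropoelastin, the precursor of elastin, and Emilin1 (chr5:30913402-30921277) a glycoprotein of the elastin and microfibril interface. Eln was at 0, 53.7, 184 and 16.7 CPM in dorsal controls 1 to 4 and at 0, 0, 0.353, 0 and 0 CPM in dorsal mutants 1 to 5. The mutant libraries were at 0 in 4 of 5 cases, and so was 1 control, so the ranges overlapped. Emilin1 was at 0.873, 65.7, 309 and 60.0 CPM in dorsal controls 1 to 4 and at 0, 0, 0, 11.5 and 17.9 CPM in dorsal mutants 1 to 5. Control 1 was below mutants 4 and 5, and the other controls were above all mutants. Ventral Emilin1 ran from 1.14 to 25.9 CPM in controls and from 12.8 to 31.8 CPM in mutants, and ventral Eln reached 15.1 CPM in mutant 1 and at most 4.63 CPM elsewhere. In the axon-rich region both genes were highest in control 1 (187 CPM for Emilin1, 66.0 CPM for Eln) and mutant 2 (131 and 73.5 CPM).

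**Figure D4:**
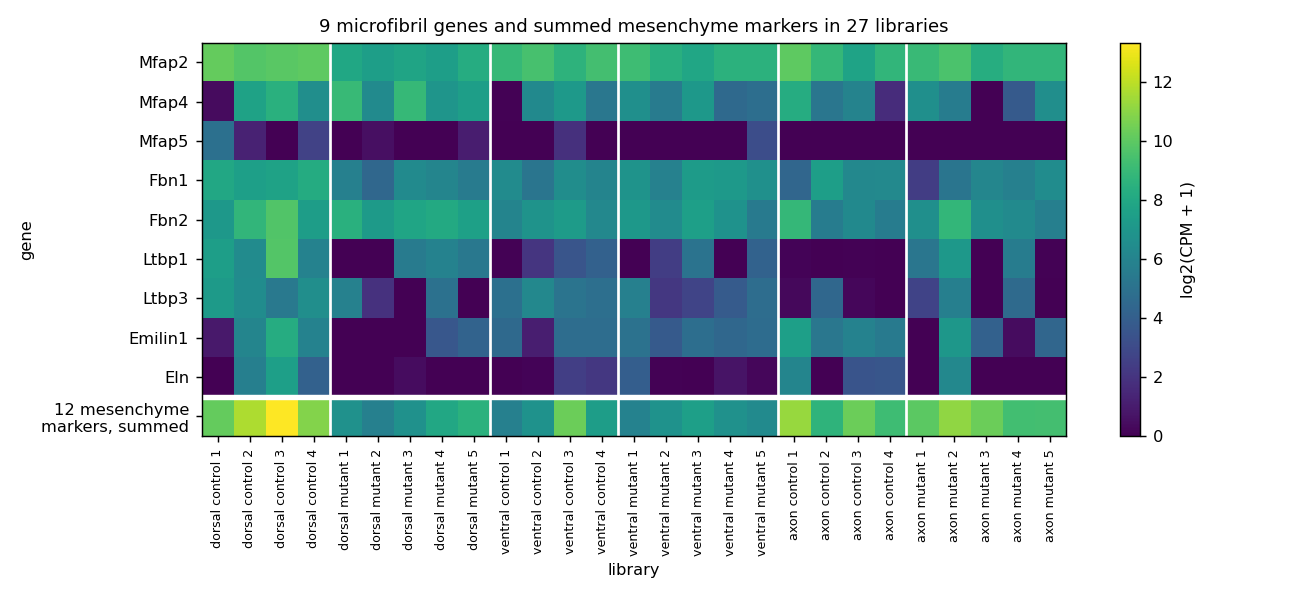
Level of each of the 9 genes on the log2(CPM + 1) scale (colour) in all 27 libraries, with the summed mesenchyme markers in the bottom row on the same scale. Mfap2 is present in every library, Mfap5 is at 0 in 20, and Eln, Emilin1 and Fbn2 are highest in the same 4 libraries as the mesenchyme markers.

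Across the regions that the choice of the genes did not use, 0 of 9 genes were called between genotypes in the ventral OS by edgeR (adjusted p under 0.05 with a log2 fold change beyond 0.58 either way), against a background of 0.0% of 16139 genes. None of the 9 had an unadjusted p under 0.05, as 3.19% of all genes did, and DESeq2 called 0 of the 9 against 2.45% of all genes with an adjusted p. In the axon-rich region, edgeR called 0 of the 7 genes tested, with a background of 0.0% of 14977 genes. Mfap5 had no count there and Ltbp1 was not tested. Of the 7, 0 had an unadjusted p under 0.05 (3.55% of all genes), and DESeq2 called 0 of the 6 to which it gave an adjusted p (10.7% of all genes). The SEs of Mfap4, Ltbp3, Emilin1 and Eln exceeded 1 on the log2 scale in both regions. So did those of Mfap5 and Ltbp1 in the ventral OS and of Fbn1 in the axon-rich region. In these cases only very large differences were detectable. The ventral mutants were all below the controls in 0.706% of genes and all above in 0.52%, and the axon mutants in 1.04% and 0.24%. None of the 9 genes had either pattern in either region.

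Ventral and axon-rich pieces of the same embryo were compared with the embryo as a block, Ltbp1 left out. In controls, edgeR called 0 of 8 genes (background 0.0%), with 0 at an unadjusted p under 0.05 (2.64% of all genes). DESeq2 called 1 of 7, Ltbp3, where it called 7.29% of all genes. Ltbp3 was higher in the ventral OS in 4 of 4 embryos, and its edgeR unadjusted p was 0.0512 and its adjusted p 0.902. In mutants, edgeR called 0 of 8 genes (background 0.259%). Mfap2 had the only unadjusted p under 0.05 there, 0.0421, with an adjusted p of 0.573, in a comparison where 6.99% of all genes had such an unadjusted p. It was lower in the ventral piece in 4 of 5 mutant embryos, at a log2 difference of -0.55 (SE 0.23), while the median of all genes lay at 1.46. DESeq2 called 1 of 8, Eln, where it called 19.8% of all genes, and 1 axon and 2 ventral mutant libraries held more than 3 counts of Eln. The call was for a higher level in the ventral piece. The mean went the other way, at 3.20 CPM in ventral and 14.7 CPM in axon mutants, with axon mutant 2 at 73.5 CPM. A difference of the genotype effect between the ventral and axon-rich regions was called for 0 of the 8 genes by edgeR (background 0.0%), with 0 at an unadjusted p under 0.05 (2.3% of all genes), and for 0 of 7 by DESeq2 (7.56% of all genes). For Mfap2 that difference was -0.57 log2 units (SE 0.43, edgeR adjusted p = 1.000), while the median of all genes lay at 0.48.

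Markers of periocular mesenchyme, the connective tissue around the stalk, moved with several of these genes. The summed level of 12 mesenchyme markers was 1159 to 10389 CPM in dorsal controls and 55.6 to 373 CPM in dorsal mutants. It was 55.4 to 1305 and 58.8 to 181 CPM in ventral controls and mutants, and 401 to 2526 and 629 to 2265 CPM in axon controls and mutants. Prrx2 was at 0 in all dorsal and ventral libraries and Foxc1 and Twist1 also in all ventral mutants. The 4 libraries with the largest sums, dorsal controls 3 and 2, axon control 1 and axon mutant 2, were also the 4 highest for Fbn2, Emilin1 and Eln. For Mfap2 the 4 highest were dorsal controls 1, 3 and 4 and axon control 1, with dorsal control 1 ranking ninth in mesenchyme sum. The part of this tissue in the dorsal differences was not tested.

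Mfap2 was also abundant where mesenchyme markers were low. Of the 27 libraries, 11 had a summed marker level under 200 CPM, and Mfap2 stood at 481 to 696 CPM in the 3 ventral controls among them. It stood at 235 to 591 CPM in the 5 ventral mutants and at 176 to 249.6 CPM in the 3 dorsal mutants. Fbn1 in the same 11 libraries ran from 20.9 to 157 CPM. Spearman's rho with the mesenchyme sum was 0.47 for Mfap2, 0.13 for Fbn1, 0.36 for Fbn2, 0.49 for Ltbp1, 0.54 for Emilin1 and 0.44 for Eln over the 27 libraries, in which pieces share embryos and the dorsal controls are high in both measures. Within a region (9 libraries each) rho for Mfap2 was 0.78 in the dorsal, -0.23 in the ventral and 0.25 in the axon-rich libraries. For Fbn1 it was 0.75, -0.03 and -0.65 in the same order, for Ltbp1 0.85, 0.60 and 0.49, and for Emilin1 0.93, 0.17 and 0.52. The dorsal values include the difference between genotypes in both measures.

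Of the other marker lists, those of stalk and astrocyte progenitors and of retinal progenitors did not overlap between the dorsal genotypes, and the rest overlapped. The 10 markers of optic stalk and astrocyte progenitors summed to 1518 to 2484 CPM in dorsal controls and 536 to 956 CPM in dorsal mutants, with no marker at 0 throughout. The 9 melanin synthesis genes summed to 43.5 to 5584 and 4256 to 14377 CPM, with dorsal control 3 the lowest. The 8 endothelial markers summed to 239.6 to 452 and 43.2 to 420.5 CPM. Mural cell markers summed to 74.9 to 219 and 25.6 to 251 CPM, and axon and neuron markers to 312 to 1935 and 569 to 1108 CPM. Erythroid markers summed to 728 to 22528 and 151 to 6815 CPM. The ranges of these lists overlapped. The 7 retinal progenitor markers summed to 121 to 321 and 349 to 1036 CPM. In ventral controls and mutants the stalk and astrocyte sums were 2263 to 2536 and 1523 to 2731 CPM. Their part in the Mfap2 and Fbn1 values was not tested.

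**Figure D5:**
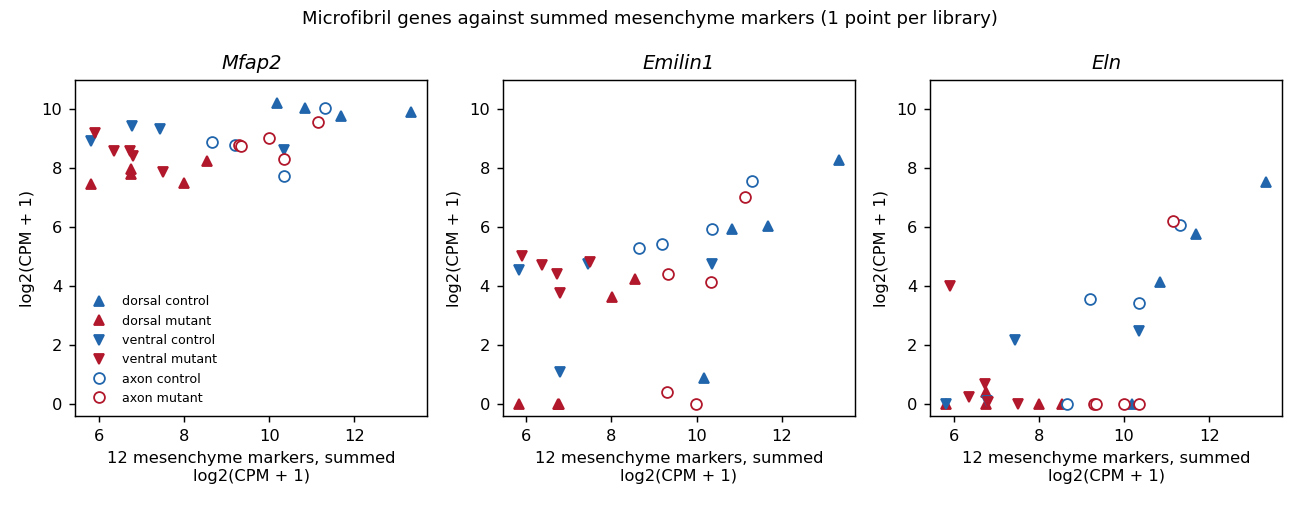
Levels of Mfap2, Emilin1 and Eln on the log2(CPM + 1) scale (vertical) against the sum of 12 mesenchyme markers on the same scale (horizontal), with 1 point per library. At low marker sums Mfap2 stays at 176 to 696 CPM, whereas the highest values of Emilin1 and Eln lie at the highest marker sums.

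The genes whose log2(CPM + 1) profile over the 27 libraries was most like that of Mfap2, compared with 10031 genes that exceeded 10 counts in 14 or more of them, were Ifitm2 (Pearson's r = 0.78), Snhg18 (0.75), Dhrs3 (0.73), Rbms3 (0.72) and Aebp1 (0.69). Ifitm2 averaged 224 CPM in dorsal controls and 65.3 CPM in dorsal mutants, and Dhrs3 138 and 3.17 CPM. No other gene of the set was as close, the nearest being Eln (0.58) and Ltbp3 (0.48), and Fbn1 had an r of 0.22 in spite of its like dorsal order. For Ltbp1 the most alike were Morc2a (0.66), Sptbn1 (0.64), Ptpn23 (0.63), Hcfc1 (0.59) and Efnb1 (0.58). These values describe libraries that share embryos, regions and batches.

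Among other genes of elastic fibre assembly, none was called in the dorsal OS. Of 14 genes in that list, 12 could be fitted in the dorsal OS and 11 had a fitted value below 0, as 51.4% of all genes did, with a median log2 fold change of -2.38 against -0.04 over all genes. edgeR called 0 of the 12 (background 0.0124%), 2 had an unadjusted p under 0.05 (5.35% of all genes), and DESeq2 called 0 of the 8 to which it gave an adjusted p (3.86% of all genes). Mesenchyme sums differed in the same libraries, as given above. Fbln1, which encodes the matrix glycoprotein fibulin-1, averaged 463 ± 369.7 CPM (SD, n = 4) in dorsal controls and 113 ± 92.2 CPM (SD, n = 5) in dorsal mutants. Lox, the lysyl oxidase that crosslinks elastin and collagen, averaged 242 ± 226 CPM (SD, n = 4) and 6.46 ± 11.2 CPM (SD, n = 5). Efemp2, which encodes fibulin-4 and recruits Lox to tropoelastin, averaged 198 ± 89.9 CPM (SD, n = 4) and 99.4 ± 51.0 CPM (SD, n = 5). The ranges of the genotypes overlapped for all 3 genes. In the ventral OS the medians were -1.46 for the list and -0.08 for all genes, and 9 of 12 were below 0 (53.2% of all genes). There edgeR called 0 (background 0.0%), the unadjusted p was under 0.05 for 0 (3.19% of all genes), and DESeq2 called 0 of 10 (2.45%). In the axon-rich region edgeR called 0 of 11 (background 0.0%), with 1 at an unadjusted p under 0.05 (3.55% of all genes). DESeq2 called 1 of 10, Loxl1, against the 10.7% given above.

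Of 8 genes of the ADAMTS family that bind fibrillin microfibrils, 7 could be fitted in the dorsal OS. edgeR called 0 of them (background 0.0124%), with 0 at an unadjusted p under 0.05 (5.35% of all genes). DESeq2 called 1 of 6, Thsd4, against 3.86% of all genes. Adamts10, the most abundant, averaged 40.7 ± 20.2 CPM (SD, n = 4) in dorsal controls and 28.1 ± 27.8 CPM (SD, n = 5) in dorsal mutants. Its ranges overlapped. Adamts6 and Adamts17 followed it in mean level over the 27 libraries, and Adamts6 had no count in any axon control. In the ventral OS edgeR called 0 of 7 genes (background 0.0%), with 1 at an unadjusted p under 0.05 (3.19% of all genes). In the axon-rich region it called 0 of 4 (background 0.0%), with 0 at an unadjusted p under 0.05 (3.55% of all genes). DESeq2 called 0 of 5 and 0 of 3, against 2.45% and 10.7% of all genes.

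Among 16 genes for TGF-beta ligands, receptors and the release of latent TGF-beta, 13 could be fitted in the dorsal OS and edgeR called 0, with 2 at an unadjusted p under 0.05 against 5.35% of all genes. DESeq2 called 2 of 13, Tgfb2 and Lrrc32, against 3.86% of all genes. Tgfb2, a ligand that latent TGF-beta binding proteins hold in the matrix, was at 345 to 916 CPM in dorsal controls and at 48.2 to 147 CPM in dorsal mutants, ranges that did not overlap. Its log2 fold change was -2.13 (SE 0.34, edgeR adjusted p = 0.103). Ventral ranges of Tgfb2, 241 to 891 and 167 to 480.4 CPM, overlapped, as did the axon ranges. Itgb1, an integrin subunit, averaged 245 ± 155 CPM in dorsal controls (SD, n = 4) and 134 ± 28.0 CPM in dorsal mutants (SD, n = 5). The receptor gene Tgfbr1 averaged 132 ± 66.8 and 79.8 ± 40.3 CPM. The ranges of Itgb1 and of Tgfbr1 overlapped. edgeR called 0 of 13 in the ventral OS (background 0.0%), with 0 at an unadjusted p under 0.05 (3.19% of all genes). DESeq2 called 0 of 12 there (2.45% of all genes). In the axon-rich region edgeR called 0 of 12 (background 0.0%), with 1 at an unadjusted p under 0.05 (3.55% of all genes). DESeq2 called 2 of 12, Tgfbr3 and Lrrc32, against 10.7% of all genes.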

How the data were processed

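RNA of 27 laser-captured OS pieces was profiled by Geo-seq, a low-input protocol in which cDNA is amplified by PCR. The authors aligned the reads to mm10 with STAR and deposited raw counts per gene from HTSeq, without scaling. The submitters' notes also name Salmon, and tool versions, annotation release and strand setting are not given in the sources used here. Groups, batches and replicate numbers came from the labels.

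CPM values are counts divided by the library total. Symbols and mm10 positions came from GENCODE M21, which held 55227 of 55487 gene identifiers, and the 260 others carried 0.00287% of the counts. Upstream sequences came from RefSeq. No libraries were copies of each other (0 identical pairs).

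The 16330 genes with over 10 counts in 3 or more libraries were compared with edgeR 4.0.16 (quasi-likelihood F-test, two-sided, robust, TMM scaling) in R 4.3.3. Calls required a p under 0.05 after Benjamini-Hochberg adjustment over all genes fitted and a log2 fold change beyond 0.58 in either direction. Genotypes were compared within a region with batch as a term. Ventral and axon-rich pieces were compared with the embryo as a block, since replicate number and batch in the labels and the number of embryos in the methods point to shared embryos, which no source states outright. Deviations of the pieces of 1 embryo from their group means were nearly uncorrelated (r from -0.01 to 0.05 for ventral and axon-rich pieces). Each SE is approximate, computed from the F statistic and the fold change. Among the 9 genes, fitted values are given for Mfap2, Fbn1 and Fbn2, which had more than 10 counts in all 27 libraries. The fits were also run on simulated counts, without a dorsal contrast and with changes only in well-expressed genes. That run does not cover genes near 0. DESeq2 1.42.0, other scalings, filters and covariates, single batches and left-out libraries were the alternatives. Named genes are the 9, the 3 of each pathway list with the highest mean CPM, the called genes of these lists, and the 5 genes most like Mfap2 and Ltbp1. The members and gene lists were chosen with earlier results of these data known. Pieces from E12 embryos were not analysed here.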

Additional observations from a re-analysis of the deposited data

Results flagged for a closer look

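Within the groups of 4 or 5 libraries, 14 of 51 combinations of gene and group had 1 library at a distance from the others that passed Dixon's 95% limit. The limit assumes normally distributed values, which CPM with many zeros are not, so the number of flags due to chance is not known. Where all others in a group were at 0, as for Mfap5 in the ventral OS, the limit was passed whatever the size of the value. The values of different genes in 1 library are not independent. Axon control 1 stood apart for Fbn2 (474 CPM, the others at 48.0 to 80.0), Emilin1 (187 CPM, the others at 38.4 to 59.9) and Eln (66.0 CPM, the others at 0 to 10.9). Axon mutant 2 stood apart for the same genes, Fbn2 (460.4 CPM, the others at 54.1 to 100.7), Emilin1 (131 CPM, the others at 0 to 20.2) and Eln (73.5 CPM, the others at 0). Both libraries had the largest mesenchyme sums of their groups.

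Ltbp1 in dorsal control 3 was 865 CPM against 58.6 to 177 in the other dorsal controls. Ltbp3 was 73.1 CPM in ventral control 2 (the others at 28.3 to 34.5) and 21.2 CPM in axon control 2 (the others at 0 to 0.223). Emilin1 in ventral control 2 was 1.14 CPM, below the 22.6 to 25.9 CPM of the other ventral controls. Eln was 15.1 CPM in ventral mutant 1 (the others at 0 to 0.627) and 0.353 CPM in dorsal mutant 3, the only dorsal mutant above 0. Mfap5 was 2.57 CPM in ventral control 3 and 7.96 CPM in ventral mutant 5, with all other ventral libraries at 0.

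A regional difference had opposite directions in every control and every mutant embryo in 3 cases. These were the dorsal minus ventral difference of Mfap2 (0.90 log2 units in controls, -0.74 in mutants), its dorsal minus axon difference (1.11 and -1.10) and the dorsal minus ventral difference of Fbn1 (1.81 and -1.12). The difference between genotypes was not tested in these cases, because dorsal values chose the set. The share of all genes with this pattern was not computed, so nothing is read from the count of 3.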

How the results depend on the processing

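Counts of genes called depended strongly on the tool and the filter. In the dorsal OS edgeR called 2 genes, against 101 with no count filter, 532 with DESeq2, 40 with the newer edgeR method, 8 with no batch term, 0 with the replicate number as a block in place of batch, 0 in batch A alone, 0 in batch B alone and 0 to 2 with single libraries left out. In the ventral OS the 0 calls became 8 with no filter and 342 with DESeq2, and in the axon-rich region 10 and 1238. Between ventral and axon-rich pieces, the 0 calls in controls became 5 with no filter, 976 with DESeq2, 13 with the newer method and 5 with no replicate block, and the 41 calls in mutants became 2698, 70 and 70 with DESeq2, the newer method and no replicate block, and 10 to 16 with an embryo left out. The 0 calls for the difference of genotype effects became 1039 with DESeq2. Among the members tested, DESeq2 called 1 between ventral and axon-rich controls (Ltbp3) and 1 between ventral and axon-rich mutants (Eln), and the other alternatives called none. The cause of these differences between tools was not tested.

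The dorsal log2 fold change of Mfap2, whose direction the choice of the set fixed, ran from -2.46 to -1.98 over the alternatives. That of Fbn1, in the same contrast, ran from -2.27 to -1.95, and Fbn2 was at 0.80 in batch A alone against -0.39. The ventral values kept their direction for Mfap2 (-0.64 to -0.31) and Fbn1 (0.39 to 0.91). None of the following small fitted values passed a test, and each changed sign. Ventral Fbn2 (-0.05) was 0.046 with the newer method, 0.13 with no batch term, 0.37 with the replicate block, 1.10 in batch A alone and -0.66 to 0.47 with a library left out. In the axon-rich region Mfap2 (-0.27) was 0.067 with the replicate block, 0.26 in batch B alone, 0.23 without control 1 and mutant 2 and -0.49 to 0.22 with a library left out. Fbn2 (-0.34) there was 0.54, 0.20, 0.19 and -0.73 to 0.17 under the same alternatives, and Fbn1 (-0.05) was 0.82 in batch A alone and -0.59 to 0.31 with a library left out. Between ventral and axon-rich controls Fbn2 (-0.02) was 0.0228 with RLE scaling, 0.0233 with DESeq2 and -0.49 to 0.77 with an embryo left out, Fbn1 (-0.21) -0.90 to 0.49, and Mfap2 (0.04) -0.19 with no replicate block and -0.19 to 0.48 with an embryo left out. With an embryo left out, Fbn2 was at -0.61 to 0.16 between the regions in mutants and at -1.10 to 0.21 for the difference of genotype effects. Same-numbered control and mutant embryos share only a number. Values from batch A alone rest on the 1 control embryo of that batch. No fitted value is given for Mfap5, Eln and Ltbp1, which were at 0 in many libraries. Counting error alone allows a level of up to 0.0883 to 0.275 CPM there.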
